A study of Drosophila melanogaster with 6 samples.

Results

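The genes described here are insulin-like peptides of the fly, their secreted binding protein, their receptor and the intracellular parts of the insulin pathway. They were chosen by name, with earlier results of these data known, so member counts set beside all probe sets are a description. A member counted as measured if the platform annotation gave a probe set to it and to no other gene. Of 10 listed genes, 8 had such a probe set, 1 each: Ilp2, Ilp5, ImpL2, InR, chico, Akt, Pdk1 and foxo. Ilp3 and Ilp6 had none here and were not analysed. These 8 probe sets stand among 18769 that were tested, and the 8 genes among 11982 with a probe set of their own. RNA came from whole males aged 30 days of W1118, a stock with white eyes that the labels treat as wild type. One group had been kept on food with lithocholic acid (LCA) at 50 µmol/l, a secondary bile acid formed by bacteria of the vertebrate gut, and the other on control food. Each diet had 3 pools of 10 flies, each pool on 1 Affymetrix array, and precision is limited by these 6 arrays. Whether pools of a diet were reared apart is not stated in the labels. Every p-value therefore rests on the spread between pools, which may in part be technical.

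Insulin-like peptides are secreted hormones. In the adult fly a small cluster of brain neurosecretory cells makes several of them, Ilp2 and Ilp5 among them. The peptides bind the receptor kinase InR, which acts through the adaptor chico and the kinases Pdk1 and Akt, and active Akt keeps the transcription factor foxo out of the nucleus. ImpL2, a secreted protein, binds the peptides and holds them back. Weak insulin signalling lengthens fly life in many mutants, and the study's title concerns the lifespan of flies given LCA, so the comparison asks how transcripts of this pathway differ between the diets. Arrays measure transcripts, whereas signalling in this pathway runs through protein binding, phosphorylation and the place of foxo in the cell, none of which was measured here.

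In flies fed LCA the transcript of the peptide Ilp2 was higher, the transcripts of the binding protein ImpL2 and of foxo were lower, and those of the kinases Pdk1 and Akt were lower by a smaller margin. Ilp5, InR and chico overlapped between the diets. None of these differences passed the threshold, an adjusted p of 0.05 over all probe sets in limma, which called 0 of 8 members and 0% of 18769 probe sets. At an unadjusted p under 0.05, limma counted 3 members lower, against 8.59% of all probe sets, and 1 higher, against 7.53%. In either direction that is 4 of 8 members, and 16.1% of all probe sets. The 3 LCA arrays lay wholly below the 3 control arrays in 4 members, as they did in 13.2% of all probe sets. They lay wholly above them in 1 member, as in 9.38% of all probe sets, so that 5 of 8 members did not overlap, against 22.5%. Differences were below 0 in 6 of 8 members and in 52.1% of all probe sets, with a median of −0.26 on the log2 scale for the members and −0.01 over all probe sets.

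**Figure D1:**
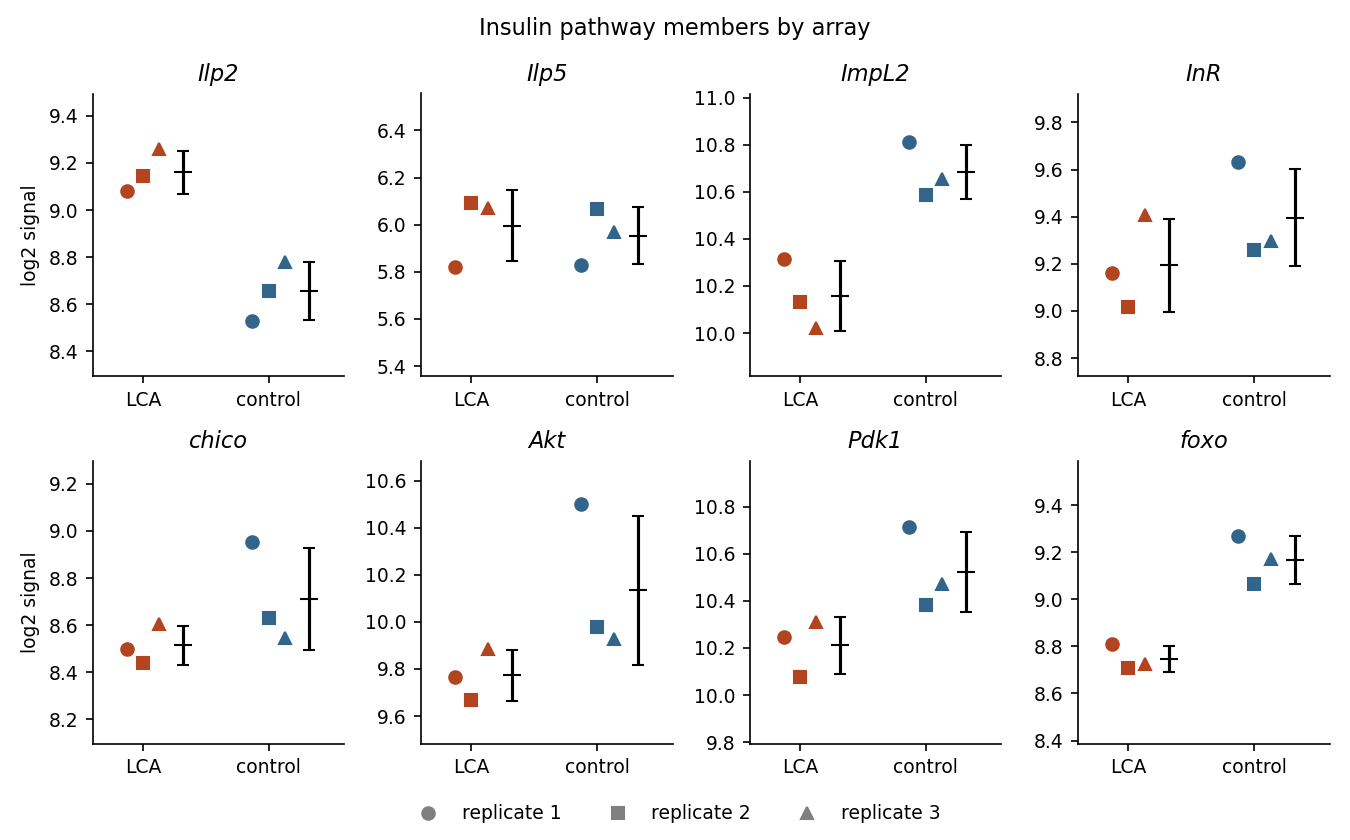
Log2 signal of the 8 measured members in each array (vertical axis, 1 panel per gene, each spanning the same number of log2 units) by diet (horizontal axis). Points are arrays, shaped by replicate number, and bars are mean ± SD (n = 3 each). LCA arrays lie wholly above control arrays for Ilp2 and wholly below them for ImpL2, Akt, Pdk1 and foxo.

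Among the ligands, Ilp2 is a main product of the brain's insulin-producing cells. It had log2 signals of 9.08, 9.15 and 9.26 in LCA arrays and of 8.53, 8.66 and 8.78 in control arrays. The lowest LCA array stood 0.30 above the highest control array. The mean was 9.16 ± 0.09 in LCA pools and 8.66 ± 0.12 in control pools (SD, n = 3 each), a difference of 0.50 ± 0.10 (SE), or 1.42-fold with a 95% interval of 1.21 to 1.67. limma gave Ilp2 an adjusted p of 0.134, and its unadjusted p of 0.00131 ranked it at place 182 among the 18769 probe sets. An exact two-sided permutation test gave 0.1, the smallest p that 3 against 3 arrays allow. In RNA of whole flies, a change in the number of cells of a type and a change in RNA per cell cannot be told apart.

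Ilp5, made by the same neurosecretory cells, was near its control level. Its log2 signals were 5.82, 6.09 and 6.07 in LCA arrays and 5.83, 6.07 and 5.97 in control arrays. The groups overlapped almost wholly, and these signals lay under the median of every array. The difference was 0.04 ± 0.11 (SE), with a 95% interval from −0.22 to 0.30. The interval of Ilp2 ran from 0.27 to 0.74, so the intervals of the 2 genes overlap. The sign of the Ilp5 difference was negative after quantile normalization or median centring, and without LCA replicate 2 or control replicate 1.

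Both genes were read on the same arrays, so a constant added to all log2 signals of an array leaves their difference unaltered. Scalings that bend the signal range, such as quantile normalization, were not run on these differences. Ilp2 minus Ilp5 was 3.26, 3.05 and 3.19 in LCA arrays and 2.70, 2.59 and 2.81 in control arrays. The diets did not overlap, with a shift of 0.46 (exact permutation test, two-sided p = 0.1, and 0.15 adjusted over 6 such comparisons), which passes no threshold. Ilp5 was dim, and the signals of 2 different probe sets are set side by side here. Of the other insulin-like peptides listed, Ilp1 and Ilp4 were not analysed. Ilp8, a relaxin-like peptide that imaginal discs and gonads make, read 4.54 ± 0.13 in LCA pools and 4.25 ± 0.16 in control pools (SD, n = 3 each). Ilp7, a peptide of neurons in the ventral nerve cord, read 4.02 ± 0.48 in LCA pools and 3.77 ± 0.16 in control pools (SD, n = 3 each). Both were dim, under the median of every array, and Ilp7 overlapped between the diets.

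ImpL2, which binds insulin-like peptides outside the cell, was the member with the lowest difference. Its log2 signals were 10.32, 10.13 and 10.02 in LCA arrays and 10.81, 10.59 and 10.65 in control arrays. No LCA array reached a control array, with a gap of 0.27 between the groups. The mean was 10.16 ± 0.15 in LCA pools and 10.68 ± 0.12 in control pools (SD, n = 3 each), a difference of −0.53 ± 0.11 (SE). The signal in LCA flies was thus 69.4% of that in control flies, with a 95% interval of the ratio from 0.581 to 0.830, and limma's adjusted p was 0.137. Within arrays, Ilp2 minus ImpL2 was −1.24, −0.99 and −0.76 with LCA and −2.28, −1.93 and −1.88 with control food. That shift of 1.03 did not overlap between the diets (exact permutation test, two-sided p = 0.1, adjusted 0.15).

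Other secreted partners and receptors of these peptides showed smaller differences. Sdr, a secreted decoy receptor that also binds the peptides, read 6.10, 5.91 and 5.96 in LCA arrays and 6.26, 6.30 and 6.22 in control arrays. All LCA arrays were below all control arrays, with a difference of −0.27 ± 0.08 (SE) and an adjusted p of 0.233 in limma. These signals lay under the median of every array. conv, a leucine-rich protein that joins peptides and ImpL2 in a complex, differed by 0.17 ± 0.09 (SE). Lgr3, the receptor of Ilp8, differed by 0.14 ± 0.14 and Lgr4, a related receptor, by 0.07 ± 0.17 (SE). The last 3 overlapped between the diets, and the difference of Lgr4 changed its sign when single arrays were left out.

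InR, the receptor kinase, did not separate the diets. It read 9.16, 9.01 and 9.41 in LCA arrays and 9.63, 9.26 and 9.30 in control arrays. Control replicate 1 was the highest, and LCA replicate 3 lay above control replicates 2 and 3. The difference was −0.20 ± 0.14 (SE), with a 95% interval from −0.54 to 0.14 and an adjusted p of 0.503 in limma.

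The adaptor chico, which links the receptor to the lipid kinase of the pathway, also overlapped between the diets. It read 8.50, 8.44 and 8.60 in LCA arrays and 8.95, 8.63 and 8.54 in control arrays, with control replicate 3 below LCA replicate 3. Its difference was −0.20 ± 0.12 (SE, 95% interval −0.49 to 0.10, adjusted p = 0.451 in limma). For both genes the interval covers 0, with a lower bound of the ratio at 0.687 for InR and 0.713 for chico, so neither a lower level nor an equal one was shown.

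The kinases Pdk1 and Akt, of which the first activates the second, read lower on all LCA arrays. Pdk1 had log2 signals of 10.25, 10.08 and 10.31 in LCA arrays and of 10.71, 10.38 and 10.47 in control arrays. Its difference was −0.31 ± 0.12 (SE), an adjusted p of 0.280 in limma, and the groups were 0.07 apart. Akt had log2 signals of 9.77, 9.67 and 9.88 in LCA arrays and of 10.50, 9.98 and 9.93 in control arrays. Its groups were only 0.04 apart, because control replicates 2 and 3 lay just above the LCA arrays while control replicate 1 stood well above them. The difference was −0.36 ± 0.16 (SE, 95% interval −0.75 to 0.02, adjusted p = 0.324 in limma).

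foxo, the transcription factor that insulin signalling restrains, had the tightest groups of the members. Its log2 signals were 8.81, 8.71 and 8.73 in LCA arrays and 9.27, 9.06 and 9.17 in control arrays, 0.25 apart. The mean was 8.75 ± 0.06 in LCA pools and 9.17 ± 0.10 in control pools (SD, n = 3 each). The signal with LCA was 74.8% of that with control food (difference −0.42 ± 0.09, SE; 95% interval of the ratio 0.648 to 0.863; adjusted p = 0.139 in limma).

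Control replicate 1 weighed on the receptor side of the pathway. It held the highest value of all arrays in each of the 6 members that were lower with LCA, and LCA replicate 2 held the lowest value in 5 of them. Without control replicate 1 the difference was −0.08 for InR, −0.07 for chico and −0.18 for Akt, each smaller by over 1.5 times than with all arrays. The median of the 8 members was then −0.13. Ilp2 (0.44), ImpL2 (−0.46), Pdk1 (−0.22) and foxo (−0.37) moved less without it. That array also stood apart on the first principal component of all probe sets, at 42.69, against 15.37 and −11.97 for the other control arrays and −7.43 to −21.42 for the LCA arrays.

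**Figure D2:**
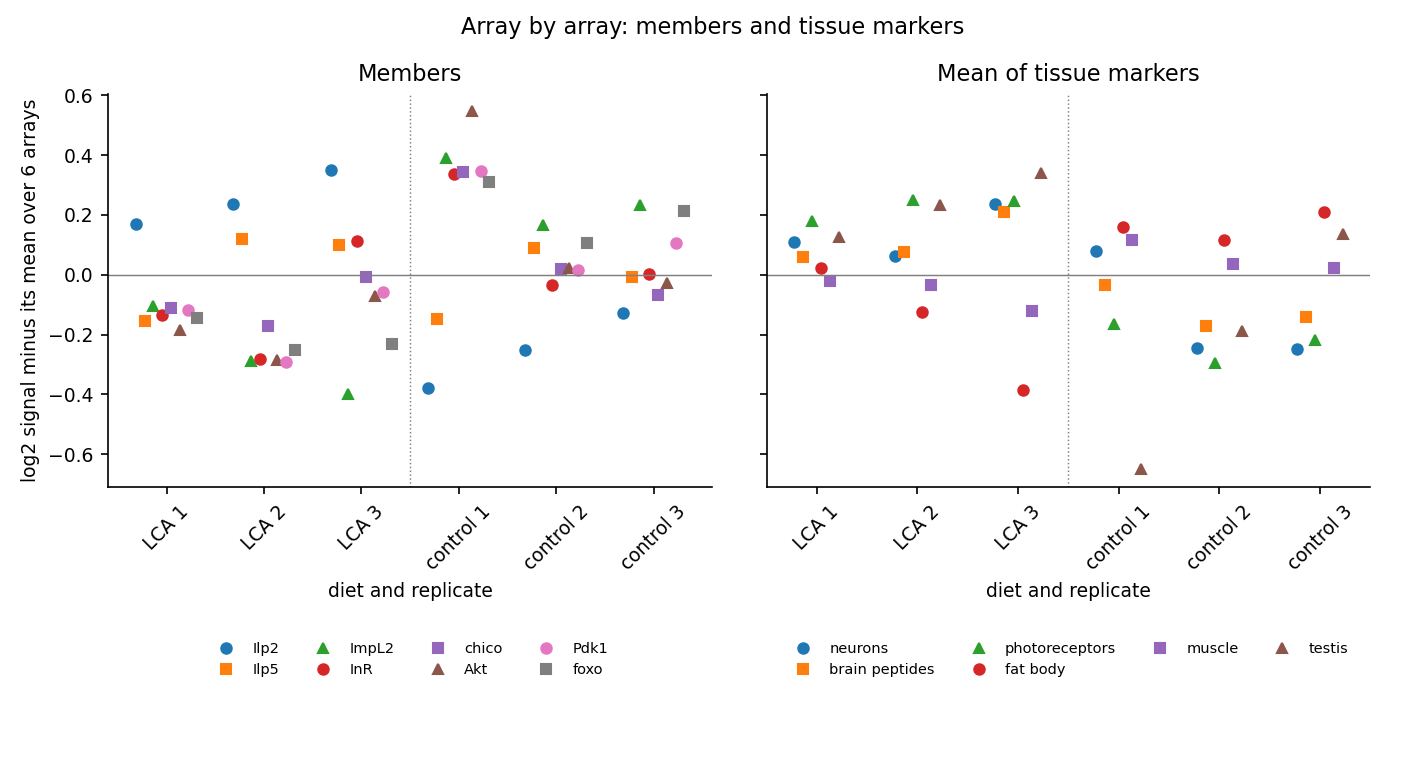
Log2 signal of each member (left) and mean log2 signal of each list of tissue markers (right), both minus their mean over the 6 arrays (vertical axis), for each diet and replicate (horizontal axis). In control replicate 1 the 6 members lower with LCA are at their highest, Ilp2 is at its lowest, and the testis markers are at their lowest.

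Whole flies mix many tissues, and tissue markers differed between the same arrays. Neuron markers were higher with LCA in 10 of 10 measured genes, with a mean log2 signal from 8.004 to 8.18 in LCA arrays and from 7.69 to 8.02 in control arrays. Brain neuropeptides were higher in 12 of 13 (7.89 to 8.04 in LCA arrays, 7.66 to 7.80 in control arrays), and photoreceptor markers in 6 of 6 (11.46 to 11.53 in LCA arrays, 10.98 to 11.11 in control arrays). Testis markers were higher in 18 of 18 (8.51 to 8.72 in LCA arrays, 7.73 to 8.52 in control arrays). Fat body markers were lower in 7 of 8 (8.57 to 8.97 in LCA arrays, 9.07 to 9.16 in control arrays), and muscle markers in 5 of 7 (8.29 to 8.39 in LCA arrays, 8.44 to 8.53 in control arrays). The fat body markers Fbp1 and Fbp2 were dim, between 3.37 and 4.08 in every array. In that list Lsd-1 (−0.87) and mdy (−0.62) differed most, and the median difference was −0.27. Only Lsd-1, mdy and FASN1 did not overlap between the diets, so the mean leans on a few genes. Among the 7 muscle markers fln and TpnC4 were dim as well, and the median difference was −0.03. The brightest probe set of the muscle gene sls differed by −0.18, its others by 0.33 and −0.12. The 3′ to 5′ difference of 3 pairs of RNA control probe sets averaged 2.65 ± 0.05 in LCA arrays and 2.34 ± 0.22 in control arrays (SD, n = 3 each).

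Ilp2 could be set beside neuropeptide and neuron transcripts of the same array, which in RNA of whole flies need not come from the brain alone. Ilp2 minus the mean of 13 brain neuropeptides was 1.19, 1.24 and 1.22 in LCA arrays and 0.73, 0.997 and 1.09 in control arrays. The diets did not overlap, and the shift of 0.27 is smaller than the difference of Ilp2 alone (exact permutation test, two-sided p = 0.1, adjusted 0.15). Without control replicate 1 it was 0.17. Ilp2 minus the mean of 10 neuron markers was 1.03, 1.14 and 1.08 in LCA arrays and 0.51, 0.96 and 1.09 in control arrays, which overlapped (shift 0.23, exact permutation test, two-sided p = 0.3, adjusted 0.36). Without control replicate 1 that shift was 0.06. Among 8 measured genes of neuropeptide processing, which mature such hormones, 3 were higher and 5 lower, with a median of −0.04. That median had no stable sign: it was 0.16 over probe sets above the median signal, 0.10 without probe sets of possible multiple matches, 0.04 without control replicate 1 and 0.015 without LCA replicate 1.

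ImpL2 and foxo were set beside the fat body markers in the same way, a comparison added after the data were seen. ImpL2 minus the mean of 8 fat body markers was 1.34, 1.30 and 1.46 in LCA arrays and 1.70, 1.52 and 1.49 in control arrays. The groups lay side by side without overlap, with a shift of −0.20 (exact permutation test, two-sided p = 0.1, adjusted 0.15). foxo minus the same mean was −0.16, −0.12 and 0.16 in LCA arrays and 0.16, −0.003 and 0.01 in control arrays. These overlapped, with a shift of −0.09 (exact permutation test, two-sided p = 0.5, adjusted 0.5).

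**Figure D3:**
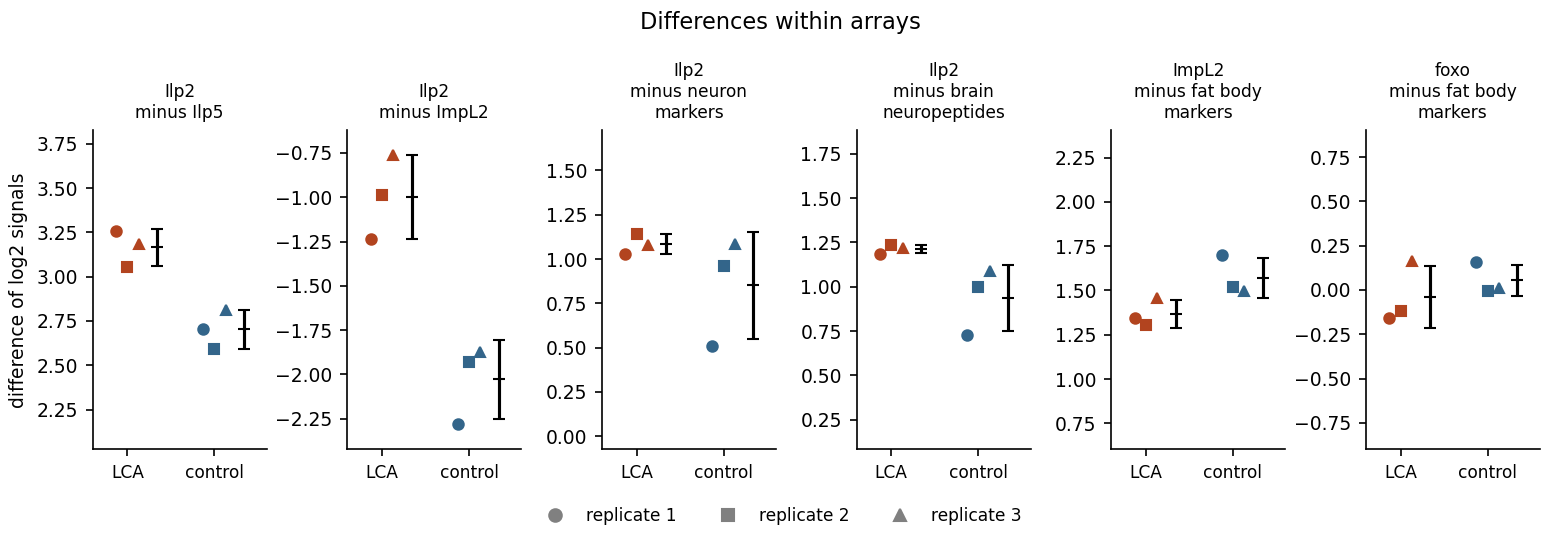
Differences between 2 log2 signals of the same array (vertical axis, each panel spanning the same number of log2 units) by diet (horizontal axis), for Ilp2, ImpL2 and foxo against another member or the mean of a marker list. Points are arrays, shaped by replicate number, and bars are mean ± SD (n = 3 each). The diets overlap for Ilp2 against neuron markers and for foxo against fat body markers.

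LCA replicate 1 and control replicate 3 had nearly the same testis marker mean, 8.51 and 8.52. Between these 2 arrays alone, which allow no test, Ilp2 read 9.08 with LCA and 8.78 with control food, ImpL2 10.32 with LCA and 10.65 with control food, and foxo 8.81 with LCA and 9.17 with control food. InR differed by −0.14, chico by −0.04, Akt by −0.16 and Pdk1 by −0.22 between them, and Ilp5 by −0.15, against its group difference of 0.04. Each of the other 7 members had the sign of its group difference and a smaller size. For Ilp2, ImpL2, Akt, Pdk1 and foxo, whose groups did not overlap, that sign was fixed in advance. For Ilp2 these were the lowest LCA array and the highest control array, so no other pair of arrays could differ less. The 2 arrays still differed in neuron markers (8.05 with LCA, 7.69 with control food) and in fat body markers (8.97 with LCA, 9.16 with control food). The part of tissue makeup and of RNA quality in the differences of the members was not tested.

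**Figure D4:**
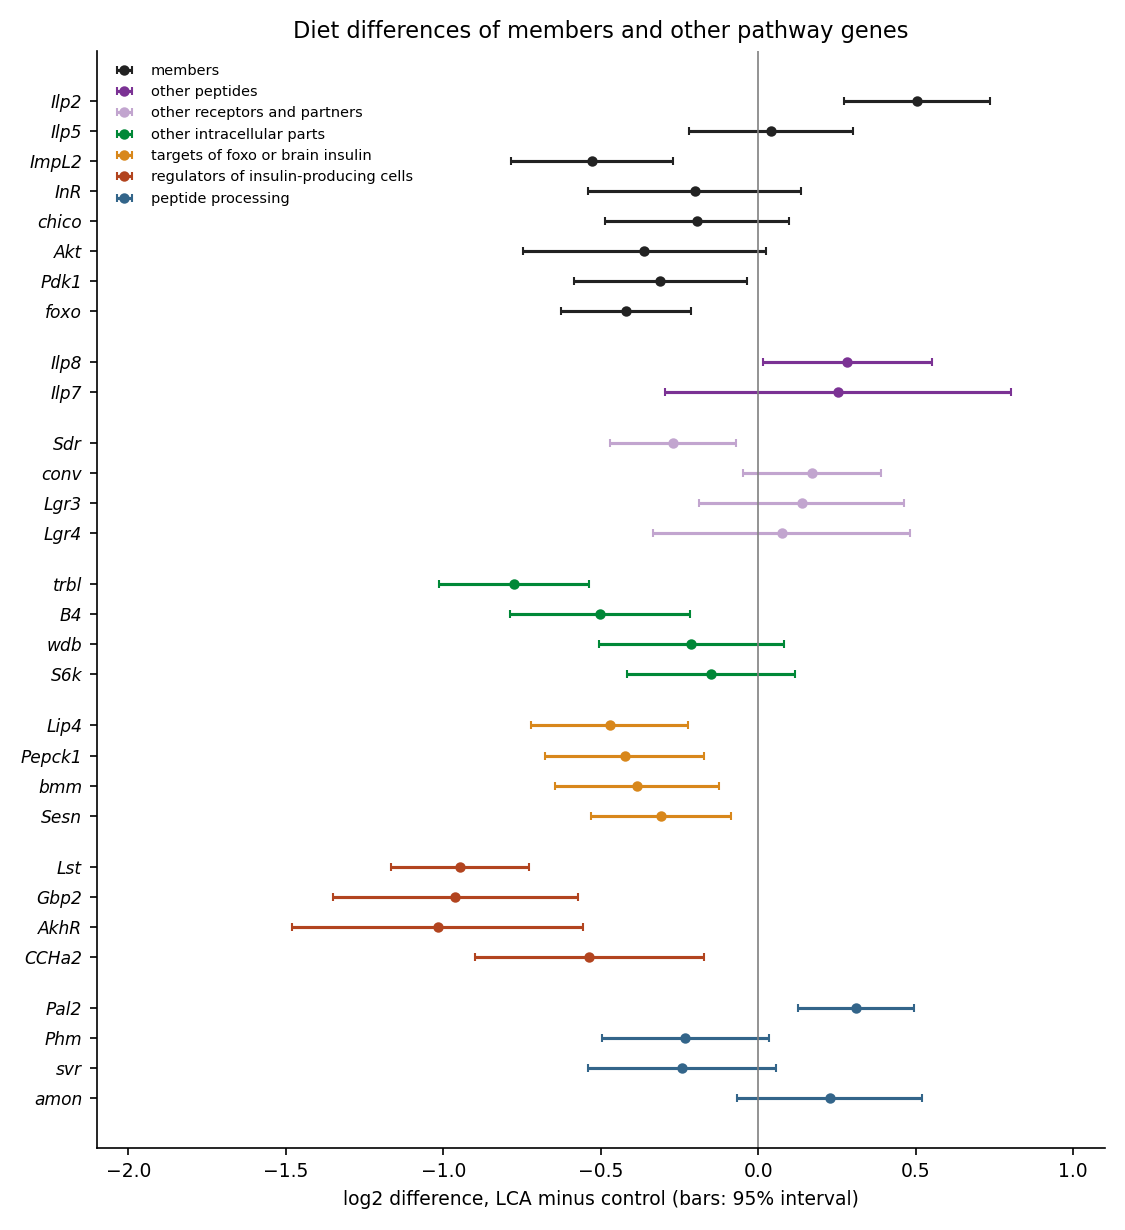
Log2 difference, LCA minus control, with its 95% interval (horizontal axis) for the 8 members and for the named genes of 6 further lists (vertical axis, coloured by list). Ilp2 lies above 0, ImpL2, Pdk1 and foxo lie below it, and the lowest values belong to trbl and to the regulators Lst, Gbp2 and AkhR.

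Further genes of the pathway were read from lists of inhibitors, effectors and upstream hormones. These lists too were chosen with earlier results of these data known, so their counts are a description. Of 14 measured intracellular parts and regulators of 23 listed, 12 were lower and 2 higher, with a median of −0.09, and 0 passed limma's threshold. At an unadjusted p under 0.05, limma counted 2 of them lower and 0 higher, against 8.59% lower and 7.53% higher over all probe sets. Without control replicate 1 the median was −0.02. The largest difference was that of trbl, a pseudokinase that binds Akt and blocks its activation. It read 7.43, 7.38 and 7.30 in LCA arrays and 8.29, 7.99 and 8.15 in control arrays. Every LCA array was far below every control array, with a difference of −0.77 ± 0.10 (SE) and an adjusted p of 0.0983 in limma.

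B4, also known as Susi, an inhibitor of the pathway's lipid kinase, read 9.18, 9.11 and 8.88 in LCA arrays and 9.72, 9.41 and 9.55 in control arrays. Its groups did not overlap (difference −0.50 ± 0.12, SE, adjusted p = 0.168 in limma), and its other, dim probe set differed by −0.18. The phosphatase subunit wdb, which acts on Akt, differed by −0.21 ± 0.12 (SE), and S6k, the kinase that TOR activates, by −0.15 ± 0.11 (SE). Both overlapped between the diets, and without control replicate 1 they differed by −0.09 and −0.04.

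Genes known as targets of foxo or of brain insulin were all on the lower side. Of 7 measured of 9 listed, 7 were lower, 5 of them at an unadjusted p under 0.05 and 0 past limma's threshold, with a median of −0.42. Over all probe sets 52.1% were lower, and 8.59% lower at an unadjusted p under 0.05. Of the 7, tobi (−0.42) and the dim upd2 (−0.02) overlapped between the diets. The list joins targets of foxo with those of brain insulin, so a shared sign is no reading of foxo activity. Lip4, a lipase, read 7.74, 7.39 and 7.55 in LCA arrays and 8.04, 8.05 and 7.999 in control arrays, without overlap (difference −0.47 ± 0.11, SE). Pepck1, an enzyme of gluconeogenesis, read 13.24, 13.15 and 12.91 in LCA arrays and 13.46, 13.52 and 13.60 in control arrays (difference −0.42 ± 0.11, SE). bmm, the brummer triglyceride lipase, differed by −0.38 ± 0.11 and Sesn, a sestrin that restrains TOR, by −0.31 ± 0.09 (SE), both without overlap. The fat body, where bmm mobilises stored fat and Pepck1 is active, had a marker mean of 8.79 ± 0.21 in LCA arrays and 9.11 ± 0.05 in control arrays (SD, n = 3 each). Its part in these differences was not tested.

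Hormones and receptors that act on the insulin-producing cells were lower in 16 of 22 measured genes of 26 listed, with a median of −0.15 and 0 past limma's threshold. At an unadjusted p under 0.05, limma counted 6 lower and 1 higher, against 8.59% and 7.53% of all probe sets. Without control replicate 1 the median was −0.07. Lst, whose product limostatin holds back insulin release, read 9.37, 9.39 and 9.34 in LCA arrays and 10.41, 10.17 and 10.37 in control arrays. LCA arrays were nearly alike and far below the control arrays (difference −0.95 ± 0.09, SE), and no probe set had an adjusted p below its 0.0697 in limma. Gbp2, a growth-blocking peptide of the fat body, read 9.07, 9.01 and 8.65 in LCA arrays and 9.69, 9.76 and 10.16 in control arrays (difference −0.96 ± 0.16, SE). AkhR, the receptor of the fat-mobilising hormone, differed by −1.02 ± 0.20 (SE), and CCHa2, a nutrient-dependent peptide that acts on the insulin-producing cells, by −0.54 ± 0.15 (SE). Both lay wholly lower in LCA arrays, where the fat body markers given above were lower too.

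Among the genes of peptide processing, Pal2, an enzyme of peptide amidation, read 9.67, 9.70 and 9.80 in LCA arrays and 9.45, 9.39 and 9.41 in control arrays. The groups did not overlap (difference 0.31 ± 0.08, SE, adjusted p = 0.178 in limma). Phm, which carries out the preceding step of amidation, differed by −0.23 ± 0.11 (SE) with overlap, and its other probe set by −0.25 without overlap. The carboxypeptidase svr differed by −0.24 ± 0.13 and the convertase amon by 0.23 ± 0.12 (SE), so members of 1 processing route lay on both sides of 0.

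Genes with the array profile most like that of a member were found by the root mean square difference of centred log2 signals over the 6 arrays, among 11981 other genes. Nearest to Ilp2 were CG14982 (0.05), mars (0.06) and CG32225 (0.06). Nearest to ImpL2 were zetaCOP (0.04), CG32147 (0.04) and Oatp74D (0.04). Nearest to foxo were CG2145 (0.03), Obp18a (0.04) and CG8468 (0.04). With 2 diets and 6 arrays, many genes share such a profile, and the likeness is a description.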

How the data were processed

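Biotin-labelled cRNA from 6 pools of whole flies was measured on Affymetrix arrays, per the labels' protocols. The table deposited by the authors holds log2 signals, from 2.32 to 14.64. Array medians were close but separated by diet, at 6.38 to 6.39 in LCA arrays and 6.31 to 6.35 in control arrays. Median centring, which removes this offset, gave differences of 0.46 for Ilp2, −0.575 for ImpL2 and −0.47 for foxo. How the authors summarized probes, corrected background and normalized is not given in the sources used here, and neither are scan dates. Leaving out 183 array controls among 18952 probe sets left 18769, of which 13647 had 1 gene symbol in the platform annotation of GEO, 402 had several and 4720 had none here. Symbols were updated through the RefSeq gene table of Release 6 plus ISO1 MT, used for names alone. Where a gene had several probe sets, the brightest on average stands for it.

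Diets were compared by lmFit and eBayes of limma (version 3.58.1, R 4.3.3), as LCA minus control with no covariate, over all probe sets and with Benjamini-Hochberg adjustment over all of them. SE and 95% intervals are limma's moderated ones. Single values were also tested by exact two-sided permutation. The fit was tested on simulated data. The members and gene lists were chosen with earlier results of these data known. Named were all members, up to 4 genes with the smallest p of each further list, and the 3 nearest profiles of Ilp2, ImpL2 and foxo. ImpL2, Akt and Pdk1 have probe sets of a class that may match several transcripts. Within-array comparisons planned with Ilp3 could not be made. Alternatives were quantile normalization, median centring, filters on dim probe sets, trended robust moderation, 1 probe set per gene, leaving out probe sets that may match several transcripts, a replicate block, and leaving out each array.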

Additional observations from a re-analysis of the deposited data

How the results depend on the processing

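In all 14 alternative settings limma called 0 probe sets and 0 members at an adjusted p under 0.05; at an unadjusted p under 0.05 it counted 3026 probe sets with all arrays, and the lowest adjusted p in any setting was 0.0504. Ilp2 (0.44 to 0.57, adjusted p 0.0622 to 0.403), ImpL2 (−0.61 to −0.46, adjusted p 0.0629 to 0.414) and foxo (−0.47 to −0.37, adjusted p 0.0666 to 0.414) kept their direction throughout, as did InR, chico, Akt and Pdk1. Much of this was fixed in advance. Filters, trended robust moderation, 1 probe set per gene and the replicate block leave a gene's difference unaltered. Leaving out 1 array could not reverse Ilp2, ImpL2, Akt, Pdk1 or foxo, whose groups did not overlap. Ilp5 lay below 0 after quantile normalization (−0.003) and median centring (−0.007), and ranged from −0.022 to 0.13 when single arrays were left out. Lgr4 ranged from −0.10 to 0.21 when single arrays were left out. With probe sets of possible multiple matches left out, ImpL2, Akt and Pdk1 were not tested, and Ilp2, Ilp5, InR, chico and foxo remained. Of these, 3 members were below 0, 1 was lower at an unadjusted p under 0.05 and 2 were without overlap. The shares over all probe sets given above were taken without this filter, so they are no background for these counts. Whether replicate numbers pair the samples cannot be told from deviations of 3 arrays per diet. Those of same-numbered arrays correlated at 0.26, −0.02 and 0.02 over probe sets, and those of differently numbered arrays at −0.28 to 0.26. With a replicate block limma called 0 probe sets, with Ilp2, ImpL2 and foxo each at an adjusted p of 0.165. Leaving out single arrays gave 0.41 to 0.52 for Ilp2 minus Ilp5 and 0.90 to 1.15 for Ilp2 minus ImpL2. Of 180 list medians under the alternatives, 10 moved by more than the spread between arrays. The 180 include trended robust moderation, 1 probe set per gene and the replicate block, which cannot move a list median. Ilp5, Ilp7, Ilp8 and the receptors Lgr3 and Lgr4 were dim, so their values may lie near background, for which the deposited table gives no call. Sdr, conv and svr also lay under the median of every array.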
